A study of Danio rerio with 34 samples.

Results

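The zebrafish embryo starts with mRNA laid down in the egg and removes much of it around the time its own genome is switched on. The transcripts described here kept most of their level, or rose, up to the sphere stage and were then largely lost by the shield stage. They were chosen by their levels in the control RNA-seq libraries, in RPKM (reads scaled to transcript length and to the reads of the library). The mean of both control replicates had to be at least 20 RPKM at 2 h (ages are in hours after fertilization), at least 80% of that value at 4 h, and at most 20% of the 4 h value at 6 h, with a transcript that a library did not list counted as 0. Of 13856 transcripts, 159 met the rule, and they are called late-cleared below. The genes btg4, slbp2, cldng and 42sp43 were to be left out, and none of them met the rule. RefSeq accessions gave 158 of the 159 a gene symbol, and NM_001089489 is named only by its ID.

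The RNA-seq compared control embryos at 2, 4 and 6 h with elavl1a morphants at 4 and 6 h, in 5 groups of 2 libraries. Fish were of the wild-type strain AB, RNA came from whole embryos and was selected for poly(A) tails, and the sources used here do not say whether the control libraries came from embryos injected with the control morpholino. Morphants were injected with a morpholino against the start codon of elavl1a, which blocks translation and is not expected to remove the mRNA, and the study's text describes a delayed gastrulation, so embryos of 1 age can differ in stage. icSHAPE, in which the reagent NAI-N3 marks flexible nucleotides, was done in wild-type embryos at 0, 0.4, 1, 2, 4 and 6 h and in elavl1a morphants at 4 and 6 h. Each of these stages had embryos treated with NAI-N3 and embryos treated with the vehicle DMSO as the unmodified control. Both treatments of a stage go into 1 deposited, pooled profile.

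Maternal mRNAs are cleared by the products of maternal genes and, after genome activation, by zygotic factors, of which the microRNA miR-430 is the best known in zebrafish. Shortening of the poly(A) tail by the Ccr4-Not complex usually comes before decay of the body of the mRNA. Elavl1a is the fish relative of HuR, an RNA-binding protein that prefers U-rich sequence and stabilizes many of its targets. Because poly(A) RNA was sequenced, loss of the tail and loss of the RNA cannot be told apart in these levels, and neither can fewer cells and less RNA per cell.

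The libraries held 61776396 to 104388477 uniquely mapped reads. The elavl1a mRNA itself stood at 202 and 200.5 RPKM in controls and 205 and 204 RPKM in morphants at 4 h, and at 298 and 299 RPKM against 343 and 342 RPKM at 6 h, which does not check a block of translation. The study's text reports that western blots were used to check the knockdown of the protein. Stage markers did differ, most clearly at 4 h. The summed level of 22 genes of the enveloping layer and yolk syncytial layer was 2134 and 2124 RPKM in controls and 1304 and 1308 RPKM in morphants at 4 h, and 14459 and 14493 RPKM against 13466 and 13415 RPKM at 6 h. At 4 h 19 of these 22 were called lower in morphants and 0 higher, and 16 of 29 blastula and gastrula genes were called lower and 6 higher, where 22.9% of all transcripts tested were called lower and 39.6% higher. At 6 h 10 of the 22 were called lower and 9 higher, and 13 of the 29 lower and 16 higher. Of all transcripts tested 39.0% were then called lower and 40.6% higher. The part of a stage difference in the results below was not tested.

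The late-cleared transcripts made up 3.26 and 3.28% of the mapped reads in the control libraries at 2 h, 3.11% in both at 4 h and 0.423 and 0.426% at 6 h, as the rule requires. In the morphant libraries, which the rule did not use, the shares were 3.31% in both at 4 h and 0.439 and 0.442% at 6 h. The median member had 43.4 RPKM in controls at 4 h (range 16.7 to 2047), and 93 members were below 50 RPKM. The 4 h mean was above the 2 h mean in 39 members, among them nanog (131% of its 2 h mean) and cited2. Over all members it was 80.07 to 239% of the 2 h mean. Maternal RNA and RNA newly made by the embryo cannot be told apart in these levels. Members had a median length of 1896 nt, against 1803 nt for 1296 retained maternal transcripts (the same 2 and 4 h limits, and at least 80% of the 4 h level at 6 h) and 1861 nt for the 5135 transcripts of at least 20 RPKM at 2 h. Summed over all 10 libraries, reads that mapped to several transcripts made up at most 8.41% of the reads of any member. Their share in the 6 h libraries alone, where members were low, was not computed and can be larger. RPKM refers to all mapped reads and the edgeR tests to unique counts, so ratios of RPKM and edgeR's log2 values can differ.

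**Figure D1:**
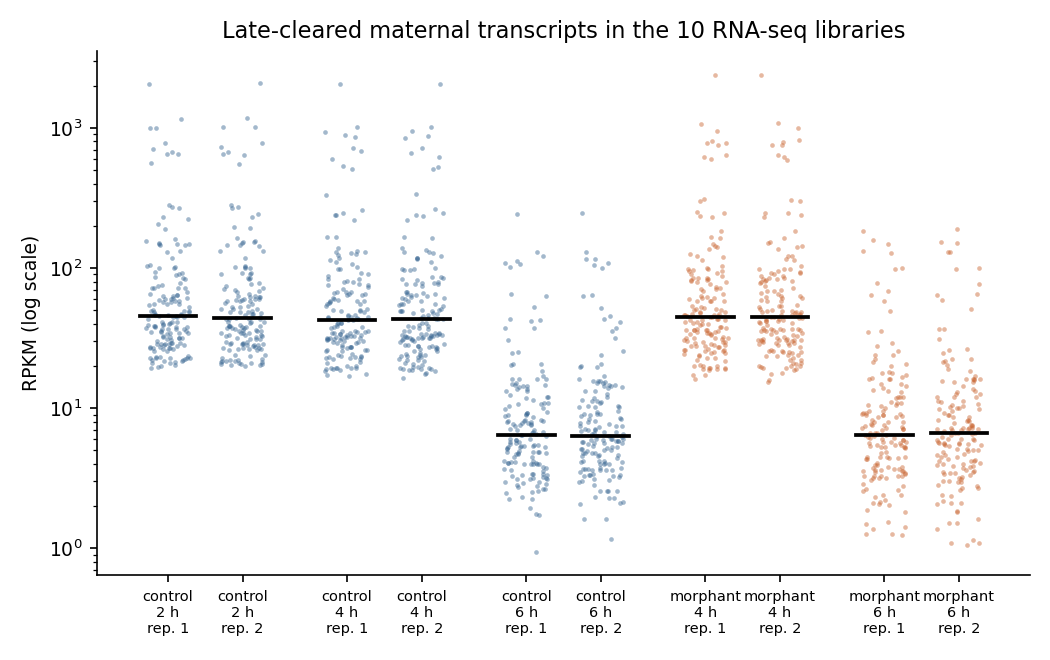
RPKM of the 159 late-cleared transcripts in each of the 10 RNA-seq libraries, on a log scale; each point is 1 transcript and the black bar is the median. The control libraries chose the transcripts, and the morphant libraries, which did not, show medians close to those of the controls at each age.

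The limits of the rule cut through a continuous range. The maternal TGF-beta ligand gdf3 (Vg1 in Xenopus) was just inside with 19.99% of its 4 h level left, and vat1 with 19.94%, while hpcal1 was just outside with 20.003%. At the limit on 4 h, polm was inside with 80.07% of its 2 h level and trim35-27 outside with 79.98%. At the minimum level, rint1 was inside with 20.06 RPKM and ttc19 outside with 19.6 RPKM. The list also depends on the scale. RPKM refers to the reads of the whole library, and when RPKM was rescaled by TMM factors (edgeR's trimmed mean of M-values) 88 transcripts met the rule, of which 40 were among the 159.

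Most late-cleared transcripts were lost in the morphants as well. All 159 were called lower at 6 than at 4 h in morphants by edgeR's quasi-likelihood test (Benjamini-Hochberg adjusted p under 0.05 over 9945 transcripts tested), where 61.4% of all transcripts tested were called lower and 32.1% higher. In all 159 both 6 h libraries lay below both 4 h libraries. That count was not made over all transcripts, so it does not set the members apart. The median log2 change was -2.99 (range -5.21 to -1.29), beside a median of -0.65 over all transcripts tested. That median moves with the scaling, to -0.08 with TMM factors and 0.08 with DESeq2's size factors, and the members' median moved with it, to -2.42 and -2.26, so that members stood 2.34 log2 units below all transcripts in each of these fits.

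By level, 126 of the 159 (79.25%) had 20% or less of their 4 h RPKM left in morphants at 6 h. Among all 4809 transcripts of at least 20 RPKM in morphants at 4 h the share was 15.5%. None of the 1296 retained transcripts went that low, and 20 of 33 early-cleared ones did (at least 20 RPKM at 2 h and at most 20% of that at 4 h). The share left in morphants ran from 3.13 to 41.7% with a median of 14.2%, and in controls, where the rule caps it, from 3.48 to 19.99% with a median of 15.6%. The morphant replicates differed by a median of 0.735 percentage points in this share, and at most by 7.75. More of the 4 h level was left in morphants than in controls for 70 members and less for 89, and 6 members had at least 30% left. Over the 159 members the shares in controls and morphants were related with a Spearman correlation of 0.501, which describes these transcripts, and genes are not independent replicates.

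**Figure D2:**
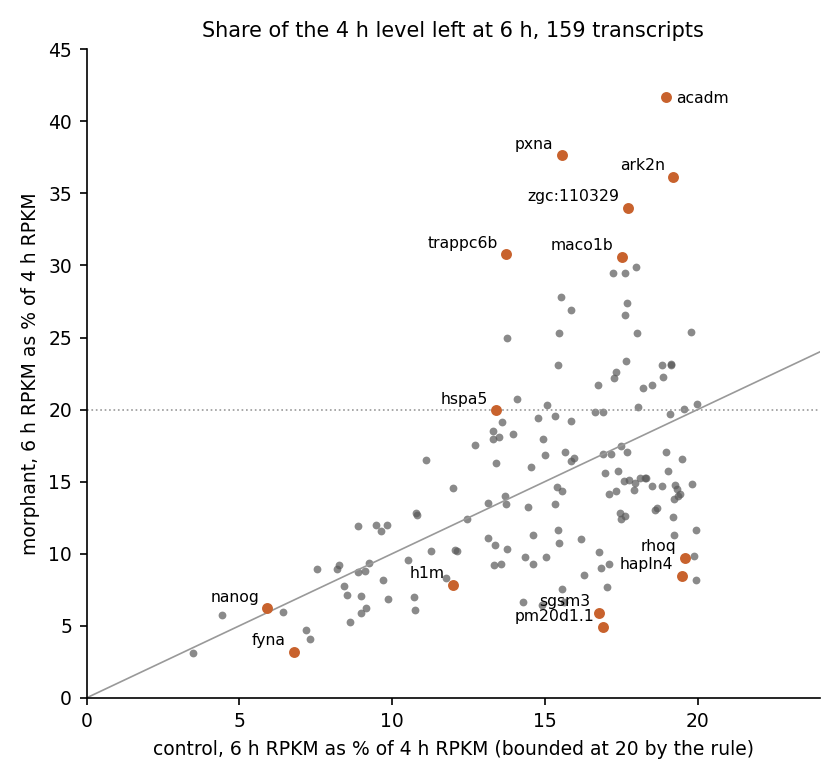
Share of the 4 h RPKM left at 6 h in controls (x axis, capped at 20% by the rule) and in morphants (y axis) for the 159 late-cleared transcripts, from the mean of 2 libraries; the line marks equal shares and the dotted line 20%. Labelled points include acadm with 41.7% and pxna with 37.6% left in morphants, above the line, and pm20d1.1 with 4.88% and sgsm3 with 5.91%, below it.

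The deepest falls in morphants from 4 to 6 h were those of fyna, a Src-family kinase, zgc:113424, the monocarboxylate transporter gene slc16a3b, smarca2, pm20d1.1 and nln. fyna went from 37.8 and 36.9 RPKM to 1.24 and 1.15 RPKM (log2 -5.21, SE 0.06, edgeR adjusted p = 1.0e-24), and in controls from 32.5 and 31.98 RPKM to 2.25 and 2.13 RPKM. zgc:113424 went from 308 and 305 RPKM to 8.97 and 10.3 RPKM in morphants, and slc16a3b from 603 and 594 RPKM to 24.02 and 24.58 RPKM. These 6 kept 3.13 to 5.29% of their 4 h level. Against control at 6 h zgc:113424 was not called (log2 0.05) and the other 5 were called lower, where 39.0% of all transcripts tested were called lower. The choice of these 6 by their fall to 6 h in morphants favours such a call. Without morphant replicate 1 at 6 h zgc:113424 was called higher (log2 0.15), and without morphant replicate 2 it was not called (log2 -0.06).

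The most abundant members had varied roles. The linker histone of the oocyte and early embryo, h1m, had 2048 and 2045 RPKM in controls at 4 h and 245 and 246 RPKM at 6 h, and 2371 and 2398 RPKM against 183 and 191 RPKM in morphants. Its morphant libraries were thus the higher ones at 4 h and the lower ones at 6 h, without overlap. The log2 difference of morphant against control was 0.22 (SE 0.02, adjusted p = 2.2e-10) at 4 h and -0.39 (SE 0.02, adjusted p = 3.2e-14) at 6 h by edgeR.

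Cyclin A1 (ccna1), which drives the rapid early divisions with Cdk partners, had 1010 and 1020 RPKM in controls and 1066 and 1080 RPKM in morphants at 4 h. At 6 h it had 65.7 and 64.6 RPKM in controls and 63.7 and 64.02 RPKM in morphants, a log2 difference of -0.03 (SE 0.02) that was not called (edgeR adjusted p = 0.095). It was called lower with TMM factors, with DESeq2's size factors, and when control replicate 2 at 6 h was left out. Cyclin B2 (ccnb2), a mitotic cyclin, went the other way at 6 h, with 123 and 115 RPKM in controls against 148 and 150 RPKM in morphants (log2 difference 0.33, SE 0.02, adjusted p = 1.1e-11).

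The homeobox factor nanog, needed in zebrafish for genome activation, had the lowest share left in controls of these 8 (5.92%), with 884 and 877 RPKM at 4 h and 52.3 and 51.9 RPKM at 6 h in controls. Morphants had 810 and 818 RPKM and then 49.7 and 51.3 RPKM. The difference at 6 h was small (log2 -0.05, SE 0.02, edgeR adjusted p = 0.028) and was not called when control replicate 1 or morphant replicate 1 at 6 h was left out. The endoplasmic reticulum chaperone BiP (hspa5) had 855 and 848 RPKM against 113 and 116 RPKM in controls, and 776 and 787 RPKM against 158 and 154 RPKM in morphants. It was lower than control at 4 h and higher at 6 h, and no library of one group reached those of the other at either age.

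The other abundant members were siva1, a pro-apoptotic protein in mammals, mkrn4, a makorin ring finger protein, and jpt1b. At 6 h mkrn4 had 101 and 99.6 RPKM in controls and 127 and 130.0 RPKM in morphants (log2 0.36, SE 0.02), while siva1 and jpt1b were lower in morphants (log2 -0.38 and -0.48, SE 0.02 and 0.03, all 3 called by edgeR). Of the 8 most abundant members, 3 were thus called higher, 4 lower and 1 not called at 6 h. Of all transcripts tested 40.6% were called higher and 39.0% lower, so this count sets the 8 apart in no way.

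Against controls of the same age, morphants showed shifts of either sign and no common direction at 6 h. The control libraries took part in the rule, so these comparisons are not independent of it. By edgeR 58 members were called higher in morphants at 6 h and 73 lower (36.5 and 45.9% of 159), where 40.6% of all transcripts tested were called higher and 39.0% lower (79.6% in either direction). Of retained transcripts 43.1% were called higher and 47.5% lower. The members' median log2 difference was -0.03 (quartiles -0.39 and 0.34), beside 0.01 for all transcripts and -0.03 for retained ones. A log2 difference of more than 0.5 in size was seen in 34.6% of members, 39.7% of retained transcripts and 47.9% of all transcripts tested. Replicates were close (common biological coefficient of variation 0.027), so that small differences were called.

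The members furthest above control at 6 h had little in common by role. Paxillin (pxna), an adaptor of focal adhesions, had 10.7 and 10.4 RPKM in controls and 29.0 and 31.1 RPKM in morphants, after 67.8 and 67.2 RPKM against 80.8 and 78.8 RPKM at 4 h. Both morphant libraries lay well above both controls at 6 h (2.858-fold by mean RPKM, and 2.995-fold, log2 1.58, SE 0.04, edgeR adjusted p = 7.9e-19 by unique counts). Medium-chain acyl-CoA dehydrogenase (acadm), of mitochondrial fatty acid oxidation, had 42.7 and 40.99 RPKM in controls and 97.8 and 98.6 RPKM in morphants (log2 1.26, SE 0.03). At 4 h its libraries had been close, with 221 and 220 RPKM against 234 and 237 RPKM.

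The other members of this end were zgc:110329, maco1b (macoilin, a membrane protein of the endoplasmic reticulum), trappc6b (a subunit of the TRAPP vesicle tethers) and yif1b (of endoplasmic reticulum to Golgi transport). Their log2 differences were 1.51, 1.29, 1.26 and 0.94 (SE 0.09, 0.06, 0.08 and 0.06, all called by edgeR). trappc6b had 6.97 and 6.34 RPKM in controls against 15.0 and 15.4 RPKM in morphants, from levels at 4 h that overlapped between the groups. Of these 6, pxna, acadm, zgc:110329, maco1b and trappc6b were also among the 6 with the smallest fall in morphants, with ark2n, which had 36.2% of its 4 h level left.

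At the other end, pm20d1.1, related to a mammalian enzyme that joins fatty acids to amino acids, had 7.82 and 8.96 RPKM in controls and 3.17 and 2.82 RPKM in morphants at 6 h. This was the reverse of its order at 4 h, where controls had 49.8 and 49.6 RPKM and morphants 61.2 and 61.4 RPKM. The Rab GTPase-activating protein sgsm3 had 4.95 and 5.58 RPKM against 2.13 and 2.12 RPKM, and the hyaluronan link protein hapln4 20.6 and 19.7 RPKM against 8.27 and 7.85 RPKM. The log2 differences of these 3 were -1.64, -1.43 and -1.40 (SE 0.08, 0.07 and 0.05, all called). Next came rhoq, the peptidase gene nln and the neurexophilin gene nxph1, with log2 differences of -1.23, -1.20 and -1.17 (SE 0.06, 0.14 and 0.12). nln and nxph1 rested on levels of 1.05 to 1.82 RPKM in morphants.

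**Figure D3:**
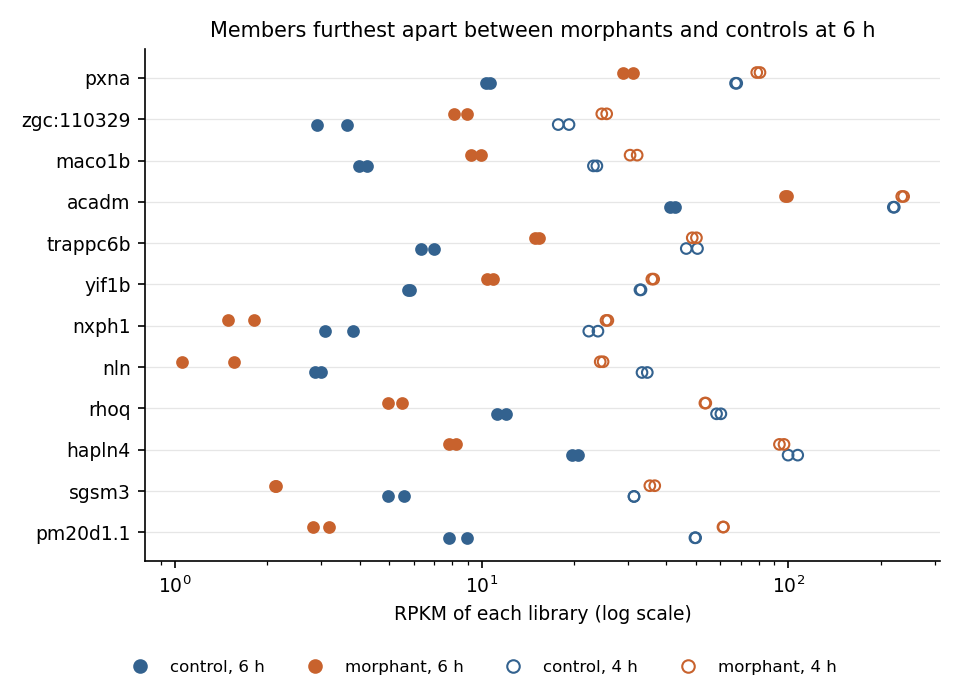
RPKM of single libraries, on a log scale, for the 6 late-cleared transcripts furthest above and the 6 furthest below control in morphants at 6 h; filled circles are 6 h, open circles 4 h, blue control and orange morphant. The 12 were chosen as the most extreme called differences at 6 h, so the gap between filled circles of controls and morphants follows from the choice. An example is acadm with 42.7 and 40.99 against 97.8 and 98.6 RPKM.

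The icSHAPE profiles hold an RPKM value of their own and showed a fall too, but not the same differences between morphants and wild type. From 4 to 6 h 127 of 159 members (79.9%) stood at 20% or less in wild type, against 27.1% of all 7937 transcripts listed at 4 h, with a transcript not listed at 6 h counted as 0. Not listed at 6 h in wild type were 37 of the members and 1684 of all transcripts. With those left out, 90 of 122 members (73.8%) stood at 20% or less in wild type, against 464 of 6253 transcripts in all (7.42%). In morphants 134 of 156 (85.9%) did, against 45.2% of all, but 120 of these were no longer listed. With those left out, 14 of 36 did, against 68 of 3853 transcripts in all (1.77%). The morphant profile at 6 h listed no member below 16.9 RPKM, so an unlisted member counted as 0 whatever share it had left. The count of 134 therefore rests largely on listing and does not measure the depth of the fall. Across all transcripts listed at both ages the 6 to 4 h ratios of RNA-seq and icSHAPE were related with a Spearman correlation of 0.895 in controls or wild type (6119 transcripts) and 0.814 in morphants (3799).

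At 6 h 36 members were listed in both icSHAPE profiles, and pxna had 19.7 RPKM in wild type and 16.9 RPKM in morphants, and acadm 43.1 and 36.4 RPKM. Both were thus lower in the morphant profile, and higher in both morphant RNA-seq libraries. hapln4 was reversed in the other sense, with 15.6 RPKM in the wild-type and 21.1 RPKM in the morphant profile, and h1m too, with 139 and 160 RPKM. Over the 36 members the log2 differences of both assays were related with a Spearman correlation of -0.425, and 10 of 36 had the same sign. No member was listed in the morphant profile at 6 h below pxna at 16.9 RPKM, while wild type listed members down to 4.46 RPKM (rnf34a). Members with a low value in the morphant profile were thus left out, and the correlation and signs are not free of that choice. Over all 4225 transcripts listed the correlation was 0.023. Of these 4225, 1024 were higher in morphants in both assays and 1033 lower in both, and of the 36 members 7 and 3. The profiles are pooled, with 1 value per stage, and their wild-type embryos are not the RNA-seq controls, and the cause was not tested.

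At 4 h, before clearance, 80 members were called higher and 30 lower in morphants than in controls (50.3 and 18.9%), where 39.6% of all transcripts tested were called higher and 22.9% lower (62.5% in either direction). The members' median log2 difference was 0.09, beside 0.07 for all, -0.05 for retained and 0.76 for early-cleared transcripts. All 33 early-cleared transcripts were called higher. Control levels at 4 h took part in choosing members, retained and early-cleared transcripts, so these differences are not independent of that choice. Early-cleared transcripts were chosen for low control levels at 4 h, which favours a call as higher in morphants. No member differed by more than 1 log2 unit. The split depends on the scaling, with 54 higher and 44 lower with TMM factors and 45 higher and 44 lower with DESeq2's size factors, where the members' median was -0.01. With TMM factors 29.9% of all transcripts were called higher and 30.9% lower. In the icSHAPE profiles at 4 h the median member of 156 had 87.3% of its wild-type RPKM in morphants, against 96.0% over all 6882 transcripts listed in both.

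The difference between the changes in both arms was tested as an interaction. The control change in this term was bounded by the rule, so the members' counts and median are not independent of their choice. Relative to controls, the change from 4 to 6 h was more negative in morphants for 78 members and less negative for 54 (49.1 and 34.0%), where 38.9% of all transcripts tested were called in the first direction and 35.3% in the second. The median difference of the changes was -0.14 for members and -0.04 for all transcripts. Without control replicate 1 at 6 h the members' median was -0.08. It was called for pm20d1.1 (-1.96, SE 0.09) and sgsm3 (-1.65, SE 0.08), which fell further in morphants, and for pxna (1.34, SE 0.05) and trappc6b (1.22, SE 0.10), which fell less.

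By role, assigned from general knowledge to 117 members after the list was known, members fell into 10 groups, and 42 were left without a role. The 13 regulators of transcription and chromatin, among them h1m, nanog, the TATA-binding protein tbp, the RNA polymerase III factor brf1a and the chromatin remodeller smarca2, had the lowest median share left in morphants, 8.90%, and all 13 were at 20% or less. At 6 h 2 of them were called higher in morphants and 7 lower. For this and the role groups that follow, the share of all transcripts tested was 40.6% called higher and 39.0% called lower at 6 h, and the counts are small. brf1a had 5.28 and 5.37 RPKM in controls and 2.66 and 2.79 RPKM in morphants, while tbp had 37.2 and 35.7 RPKM against 35.5 and 36.7 RPKM, which overlap.

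Of 10 members of the cell cycle and genome maintenance, 3 were called higher and 6 lower in morphants at 6 h. Subunits of 1 complex went apart there. The origin recognition subunit orc2 had 5.31 and 5.87 RPKM in controls and 7.26 and 6.70 RPKM in morphants, and orc6 42.1 and 43.2 RPKM against 35.1 and 36.5 RPKM (log2 0.43 and -0.26, SE 0.08 and 0.03, edgeR adjusted p = 9.0e-05 and 5.3e-08). Of 7 ubiquitin ligases and chaperone cofactors 1 was called higher and 5 lower, and of 12 metabolic enzymes and transporters 3 and 8.

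The 14 mitochondrial members had a median of 17.0% left in morphants, and 5 were called higher and 4 lower at 6 h. They range from acadm to samm50, an assembly factor of the outer membrane with 8.15% left. The 8 members of folding and quality control in the endoplasmic reticulum had a median of 17.1% left, and 4 were called higher and 3 lower. Besides hspa5, ficd, which modifies BiP with AMP, had 6.80 and 6.72 RPKM in controls and 10.1 RPKM in both morphant libraries at 6 h. Among 16 members of membrane traffic 6 were called higher and 7 lower, and among 23 of signalling and adhesion 11 and 10. The oxygen-dependent hydroxylases hif1an, egln1b and ogfod1, of which hif1an and egln1b act on the hypoxia-inducible factor HIF, were called higher in morphants at both ages, 3 of 3, where 39.6% of all transcripts tested were called higher at 4 h and 40.6% at 6 h. The group was drawn up after the members were known, and alkbh5, an RNA demethylase that also uses oxygen, stands with the RNA group and was called lower at 6 h (log2 -0.25, SE 0.05).

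Of 47 measured mRNA decay factors 2 were members, the Ccr4-Not ubiquitin ligase subunit cnot4b and the m6A reader ythdf3. Members were 159 of all 13856 transcripts listed, and 159 of the 5135 with at least 20 RPKM at 2 h. The 47 had a mean of at least 1 RPKM over libraries, so neither base is quite like theirs. cnot4b had 10.1 RPKM in both controls against 6.61 and 7.48 RPKM in morphants at 6 h, and ythdf3 4.90 and 5.74 RPKM against 8.72 and 9.18 RPKM. These opposite differences were both called by edgeR (log2 -0.58 and 0.78, SE 0.04 and 0.06). Over the 11 members of RNA modification, processing and turnover 5 were called higher and 5 lower.

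Set beside lists of known maternal and zygotic genes, chosen with earlier results of these data known, the late-cleared transcripts, 159 of the 5135 at 20 RPKM or more at 2 h, included 5 genes of these lists. Members made up 2 of 46 measured meiotic and cell cycle regulators (ccna1 and ccnb2), 1 of 31 oocyte chromatin and histone proteins (h1m), and 0 of 28 maternal mRNA-binding proteins, 18 germ plasm and piRNA genes, 22 egg coat and oocyte factors, 29 blastula and gastrula genes and 22 enveloping and yolk syncytial layer genes. From 4 to 6 h in morphants, 30 of 47 decay factors, 16 of 28 mRNA-binding proteins, 15 of 18 germ plasm genes, 21 of 22 oocyte factors, 23 of 46 cell cycle regulators and 20 of 31 chromatin proteins were called lower, where 61.4% of all transcripts tested were. Their median log2 changes were -0.61, -0.69, -3.27, -1.80, -0.09 and -0.54, where all transcripts had -0.65. Of the stage lists, 21 of 29 blastula and gastrula genes and 21 of 22 enveloping and yolk syncytial layer genes were called higher (medians 1.89 and 5.195), where 32.1% of all transcripts tested were.

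At 6 h, where 40.6% of all transcripts tested were called higher in morphants and 39.0% lower, the lists were called in both directions. Called higher and lower were 26 and 18 decay factors, 11 and 14 mRNA-binding proteins, 8 and 8 germ plasm genes, 2 and 16 oocyte factors, 31 and 10 cell cycle regulators, 14 and 16 chromatin proteins, 16 and 13 blastula and gastrula genes, and 9 and 10 of the enveloping and yolk syncytial layers. The medians were 0.10, -0.17, -0.03, -0.56, 0.36, -0.21, 0.17 and 0.01 in the same order, beside 0.01 for all transcripts. So ccnb2 and ccna1 belong to a list in which most genes were called higher in morphants at 6 h, and ccna1 was not.

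Before clearance, icSHAPE reactivity of the members moved up and down with age along with that of other transcripts. Reactivity runs from 0 to 1, with higher values at more flexible nucleotides, and was averaged over those transcripts in which over 50% of nucleotides had one, of which there were 74, 85, 102, 141 and 158 among the members at 0, 0.4, 1, 2 and 4 h. Mean reactivity of members was 0.294 ± 0.022, 0.339 ± 0.022, 0.270 ± 0.023, 0.242 ± 0.018 and 0.287 ± 0.020 at these ages (SD over transcripts). Retained transcripts had 0.294, 0.337, 0.277, 0.246 and 0.291, and all transcripts 0.294, 0.338, 0.276, 0.244 and 0.287. From 2 to 4 h all 141 members with both values moved up, by 0.046 on average, as did 99.3% of all 5265 transcripts. With 1 profile per stage no test between replicates could be made.

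**Figure D4:**
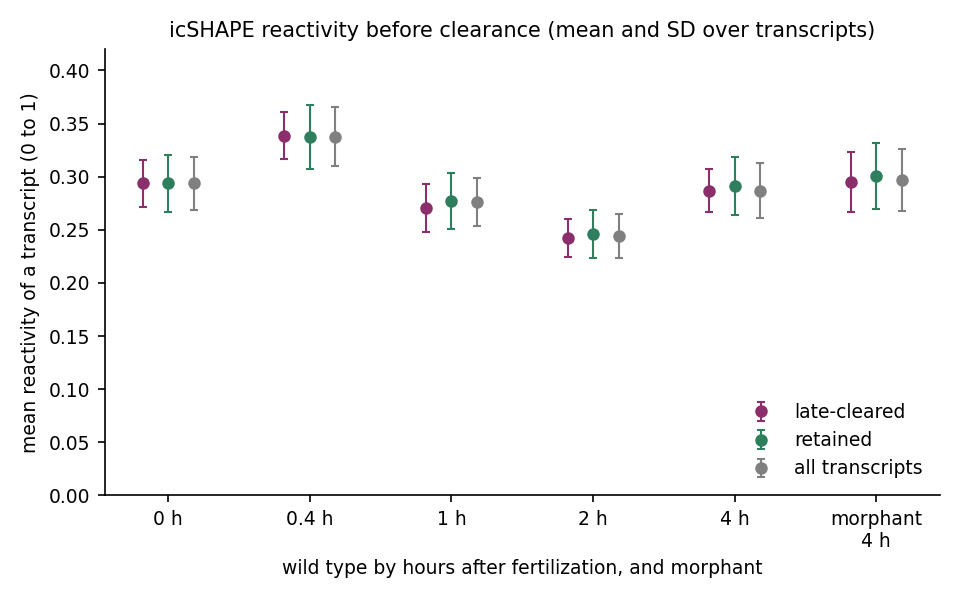
Mean icSHAPE reactivity of late-cleared, retained and all transcripts with more than 50% of nucleotides valued, in 5 wild-type stages and in morphants at 4 h; points are means over transcripts and bars 1 SD over transcripts. The means of the 3 groups move together from stage to stage, as at 2 h with 0.242, 0.246 and 0.244, and the bars show single transcripts and are no test of the means.

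Among transcripts of like coverage (20 to 100 RPKM in the profile, a limit chosen after seeing the data) the mean of members was below that of retained transcripts in all 5 wild-type profiles up to 4 h, as at 1 h with 0.264 ± 0.021 against 0.275 ± 0.023 and at 4 h with 0.285 ± 0.018 against 0.292 ± 0.025 (SD over transcripts). These differences have no replicate error. At 4 h single members ranged from 0.233 in tmem256 to 0.340 in trappc6b, and the abundant h1m (0.331), nanog (0.309) and ccna1 (0.301) were above the members' mean, with siva1 (0.254) below it. Reactivity at 4 h and the share left in morphants had a Spearman correlation of 0.0087 over 158 members. With reactivity at 2 h it was -0.168 (141 members) and with that of morphants at 4 h -0.111 (109 members). With length it was -0.087 and with level -0.029 over 159.

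Along the transcript, members differed from retained transcripts in opposite directions in the first and last 5% of the length in wild type at 4 h, but not in every profile. At 4 h median reactivity was 0.335 in the first 5% of the length and 0.286 in the last 5%, against 0.363 and 0.276 in retained and 0.339 and 0.278 in all transcripts. The higher value was limited to the last 5%. In bins 16 to 19 of 20 members were lower than retained transcripts at 4 h, as in bin 18 with 0.274 against 0.290. At 0, 0.4 and 2 h the directions in the first and last 5% were the same as at 4 h. At 1 h members and retained transcripts were alike in the first 5% (0.295) and members were lower in the last 5% (0.267 against 0.271). In morphants at 4 h members were lower at both ends (0.309 against 0.339, and 0.2875 against 0.2887). Of the nucleotides valued at both ages, 22.0% changed by more than 0.2 from 2 to 4 h in members, 21.0% in retained and 23.1% in all transcripts.

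**Figure D5:**
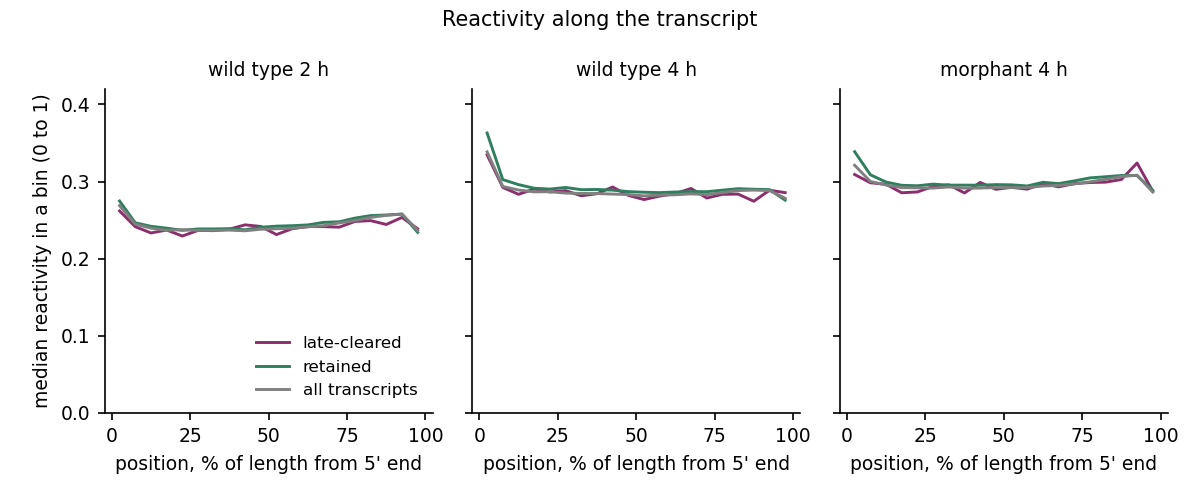
Median icSHAPE reactivity in 20 bins of equal length from the 5′ to the 3′ end, for late-cleared, retained and all transcripts in wild type at 2 and 4 h and in morphants at 4 h. The lines follow similar courses along most of the length, and at 4 h in wild type the first bin was at 0.335 in late-cleared and 0.363 in retained transcripts.

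In morphants at 4 h the mean over 109 members was 0.295 ± 0.028, against 0.301 ± 0.031 in retained and 0.297 ± 0.029 in all transcripts. For the 109 members valued in both profiles it was 0.0048 above wild type (SD 0.016), with 69 of 109 higher, beside 0.0067 for retained and 0.0025 for all transcripts. Nucleotides changing by more than 0.2 between wild type and morphant were 21.4% in members, 21.9% in retained and 22.7% in all. siva1 moved by more than most, from 0.254 in wild type to 0.306 in morphants, and nanog from 0.309 to 0.349. At 6 h 21 members in each profile still had enough values, 19 of them in both, with means of 0.293 ± 0.023 in wild type and 0.264 ± 0.019 in morphants, and all transcripts had 0.289 ± 0.027 and 0.254 ± 0.024.

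In the icSHAPE profiles the RPKM of many members was lower at the earliest ages, which the rule did not use, than at 2 h. The study's text describes maternal poly(A) tails that are short just after fertilization and lengthen during cleavage. RNA for icSHAPE was selected for poly(A) tails too, so longer tails and more RNA cannot be told apart in these values. Of the 159, 34 were not listed in the icSHAPE profile at 0 h and 3 at 0.4 h, and all were listed at 1 and 2 h. Of 1296 retained transcripts 1219 were listed at 0 h and 1277 at 0.4 h. The study filtered its profiles by coverage, so that a transcript not listed is not simply one of lower level. From 0 to 2 h the RPKM of the 125 members listed at both went to a median of 169% of the first value, against 112% for 1218 retained and 126% for 6468 transcripts in all, and 44.0% of members, 29.1% of retained and 30.7% of all were above 200%. mkrn4 went from 72.5 to 142, 418 and 735 RPKM at 0, 0.4, 1 and 2 h, and hspa5 from 47.0 to 93.7, 192 and 479 RPKM. Other abundant members went down, as h1m from 3310 to 2928, 1889 and 1647 RPKM and ccna1 from 2141 to 2400, 1687 and 1276 RPKM. cnot4b and ythdf3 were not listed at 0 h and had 49.6 and 38.4 RPKM at 2 h. With 1 profile per age these courses have no replicate error.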

How the data were processed

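The authors mapped RNA-seq reads to RefSeq transcripts with Bowtie2 after trimming with cutadapt and Trimmomatic, and deposited per transcript a unique read count, a multiple read count and an RPKM value, which refers to all mapped reads; transcripts under 0.1 RPKM are not listed. For icSHAPE the authors combined replicates and deposited a fraction from 0 to 1 per nucleotide (reactivity) and 1 RPKM value per transcript, the reads behind which are not given in the sources used here. Elavl1a iCLIP peak lists were not analysed here. The RNA-seq libraries held 61776396 to 104388477 unique reads. Symbols came from RefSeq accessions (13579 of 13856 matched).

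Members and gene lists were chosen with earlier results of these data known, and roles after the members were known. Unique counts were tested with edgeR 4.0.16 (quasi-likelihood, library totals, all 10 libraries in 1 fit, mean RPKM of at least 1 over libraries, 9945 transcripts), and limma 3.58.1 and DESeq2 1.42.0 in R 4.3.3 served as alternatives, with other scalings, no filter, a replicate block and each library left out. The study used DEGseq for such comparisons. SE is the log2 change divided by the root of F. The edgeR step was tested on simulated data. The sources used here do not say whether replicates came from separate clutches, so p-values measure the spread between these libraries. Replicates differed by more than sampling noise (chi-square per degree of freedom 3.36 to 4.58). Named members are the 8 with the highest control RPKM at 4 h, 6 at each end of the change in morphants and of the called difference at 6 h, and all in a gene list; others named, such as tbp, orc2, ficd or gdf3, were chosen after their values were seen.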

Additional observations from a re-analysis of the deposited data

Results flagged for a closer look

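Each of the 27 members named by the rule was tested for a difference between morphants and controls in its change from 4 to 6 h (an interaction term in edgeR), and all 27 passed the threshold. Many were named for the size of their change in morphants or of their difference at 6 h, so that this count is no finding. Of all transcripts tested 74.1% passed. Values are the log2 change in morphants minus that in controls, and a negative value is a deeper fall in morphants. The fall was deeper for pm20d1.1 (-1.96), sgsm3 (-1.65), nxph1 (-1.33), hapln4 (-1.27), rhoq (-1.08), fyna (-1.05), slc16a3b (-0.89), nln (-0.71), cnot4b (-0.69), smarca2 (-0.64), h1m (-0.61), jpt1b (-0.49), siva1 (-0.43), zgc:113424 (-0.19) and ccna1 (-0.11). It was shallower for pxna (1.34), trappc6b (1.22), acadm (1.17), zgc:110329 (1.05), ark2n (0.99), maco1b (0.83), yif1b (0.81), hspa5 (0.58), ythdf3 (0.40), ccnb2 (0.26), mkrn4 (0.17) and nanog (0.065). The control libraries in this term also chose the members, so these values describe them.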

How the results depend on the processing

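The list of members depends on its limits. The rule gave 88 transcripts with a minimum of 40 RPKM at 2 h, 39 with no loss allowed from 2 to 4 h, 375 with 60% required at 4 h, 25 with at most 10% left at 6 h, 358 with at most 30%, and 88 after TMM rescaling of RPKM. Leaving out each library in turn gave 151 to 163 by the rule, 159 in every case for members called lower in morphants from 4 to 6 h, 67 to 84 higher and 26 to 33 lower at 4 h, 55 to 58 higher and 63 to 73 lower at 6 h, and 49 to 53 and 68 to 76 for the interaction. The lone sample was then assumed to vary like the other groups. At 4 h DESeq2's size factors gave 45 members called higher in place of 80.

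Mean reactivity moved with its definition. As the median nucleotide it was 0.206, 0.271, 0.178, 0.136 and 0.199 at 0, 0.4, 1, 2 and 4 h and 0.214 in morphants at 4 h. With zeros left out it was 0.319, 0.311, 0.293 and 0.328 at 0, 1, 2 and 4 h and 0.344 in morphants. Of the icSHAPE levels in morphants, 14 members were at 20% or less when those not listed were left out, against 134.

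Replicates share only a number. With a replicate block 159 members were called lower in morphants, 80 higher and 30 lower at 4 h, 58 and 73 at 6 h, and 54 and 77 for the interaction. Replicate differences correlated between groups at -0.024 to 0.047. The limit of 20 to 100 RPKM for reactivity was chosen after seeing the data. Comparisons of iCLIP peaks on members, of miR-430 seed matches and of coding with untranslated sequence were not run, since no genome, annotation or transcript sequence was given.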
